A study of Rattus norvegicus with 12 samples.

Results

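The serotonin receptors described here are 10 genes of the rat L5 dorsal root ganglion (DRG): Htr1a, Htr1b, Htr1d, Htr1f, Htr2a, Htr2b, Htr3a, Htr3b, Htr4 and Htr7. They are 10 of 16313 gene symbols that stand in both expression tables of the study. The genes were taken by symbol, in the knowledge of earlier results of these data that included the low Htr3a and Htr3b values after injury, and for each symbol the row was chosen by its highest mean FPKM. Every member had 1 row in each table, so that choice changed nothing. The values below are therefore a description, and none is given as a test.

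Serotonin is made from tryptophan, stored in platelets, in mast cells of rodents and in brainstem neurons, and released where tissue is injured and in the dorsal horn. Its receptors fall into classes by what they do to the cell. Htr3a and Htr3b encode subunits of a cation channel that serotonin opens directly, and the B subunit forms a working channel only together with the A subunit. The Htr1 receptors act through Gi/o proteins and dampen cyclic AMP, the Htr2 receptors act through Gq and phospholipase C, and Htr4 and Htr7 act through Gs and raise cyclic AMP. In sensory ganglia these receptors are known from nociceptors, where the channel excites the cell and Htr1b, Htr1d and Htr1f are targets of the triptans.

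RNA was taken from Sprague Dawley rats 14 days after spinal nerve ligation (SNL), a neuropathic pain model in which the L5 spinal nerve is tightly tied on the left side. The labels name male rats, where the methods name both sexes, and the methods give an age of some weeks. Each of 4 groups held 3 libraries: SNL (the ligated side), Control (the uninjured side of ligated rats, so not naive animals), SNL rats whose L5 DRG had received an adeno-associated virus (AAV) with Neat1 shRNA, and SNL rats given the control AAV, which carries scrambled shRNA. The AAV was of serotype 6 and was injected before the ligation, and the methods describe shRNA plasmids built from an H1 promoter vector and an AAV plasmid with EGFP. Neat1 is a long non-coding RNA of nuclear paraspeckles. The deposited tables give 1 FPKM value (fragments scaled to transcript length and library size) for each group, so the spread between animals is not known here. The authors' own p-values were not used, and every difference below is given without a replicate check. The authors assembled and scaled SNL and Control in 1 table and the AAV groups in another, so ratios are taken only within a table and levels are otherwise set side by side.

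By its 1 FPKM value per group, the targeted RNA was not lower in the group labelled for its knockdown. Other measures of the knockdown are not weighed here, so these values alone do not decide whether it worked. The Neat1 row had 374 FPKM in the group labelled Neat1 shRNA, against 355 FPKM in the control AAV group (log2 ratio 0.07), so that group is called by its label throughout and every direction drawn from it rests on the label. In the other table the Neat1 row had 294 FPKM in SNL and 141 FPKM in Control. How deeply the libraries were sequenced cannot be read from FPKM. In short olfactory receptor rows the lowest values above 0, multiplied by row length in kb, lay between 0.0152 and 0.0206 over the 4 groups, which shows how low a value can be before it rests on very few fragments.

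Sequences at the gene starts are shown for Htr3b and Htr1d, whose levels differed most among the members with a sequence, and for Htr1b, which stayed inside 1.5-fold, so that the results below can be set beside them. RefSeq (GRCr8) gave a stretch from 250 bases before to 50 bases after the start for 6 of the 10 members, and Htr3a was not among them. Capitals mark matches to the GC box GGGCGG on either strand, a motif held by 33.1% of 33469 rat promoter windows of the same length. The windows lie at chr8:58204890-58205189 on the minus strand for Htr3b, at chr5:153939485-153939784 on the plus strand for Htr1d and at chr8:91414766-91415065 on the minus strand for Htr1b.
Htr3b: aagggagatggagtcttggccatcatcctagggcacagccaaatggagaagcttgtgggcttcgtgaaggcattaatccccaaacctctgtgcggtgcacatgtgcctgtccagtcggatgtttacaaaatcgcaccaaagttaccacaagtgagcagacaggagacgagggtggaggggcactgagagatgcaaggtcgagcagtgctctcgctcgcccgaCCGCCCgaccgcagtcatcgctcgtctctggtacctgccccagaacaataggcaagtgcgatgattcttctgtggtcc
Htr1d: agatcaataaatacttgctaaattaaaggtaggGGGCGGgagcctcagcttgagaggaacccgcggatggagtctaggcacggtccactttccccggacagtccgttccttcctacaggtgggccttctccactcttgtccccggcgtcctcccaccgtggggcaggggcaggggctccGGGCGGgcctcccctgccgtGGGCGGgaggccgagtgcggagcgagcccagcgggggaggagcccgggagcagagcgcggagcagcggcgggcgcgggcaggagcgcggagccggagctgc
Htr1b: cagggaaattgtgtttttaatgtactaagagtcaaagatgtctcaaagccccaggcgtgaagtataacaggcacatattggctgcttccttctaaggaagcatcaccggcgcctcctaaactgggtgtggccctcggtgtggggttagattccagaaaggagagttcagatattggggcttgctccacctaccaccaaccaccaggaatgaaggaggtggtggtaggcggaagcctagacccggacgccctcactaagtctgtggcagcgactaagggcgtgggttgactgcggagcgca

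The Htr3b window holds 1 GC box, the Htr1d window 3 and the Htr1b window 0. Their GC content was 56.0%, 69.3% and 53.7%, against a median of 51.7% over all windows. None of these windows holds the cyclic AMP response element TGACGTCA (1.83% of all windows), its core TGACG, which is part of it (21.2%), the AP-1 motif TGANTCA (7.33%) or the TATA box TATAAA (14.2%), each searched on both strands. Of the other members with a window, Htr7 (79.7% GC) holds 1 TGACG core, and Htr1f (26.3% GC) and Htr2b (43.3% GC) hold none of the motifs searched.

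**Figure D1:**
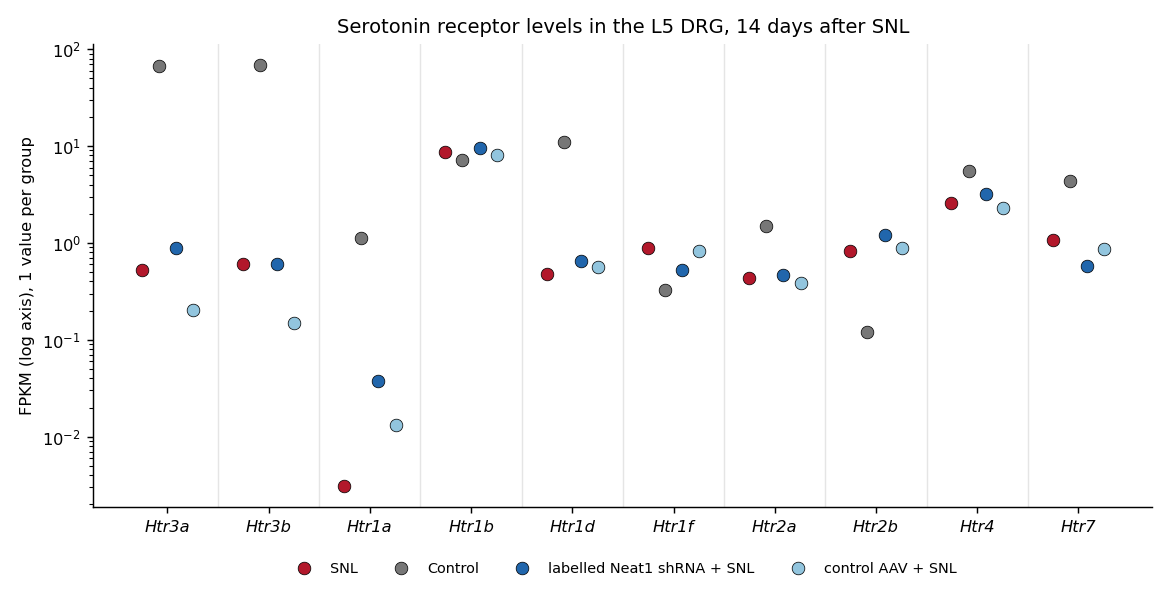
FPKM of the 10 serotonin receptors in 4 groups of 3 pooled libraries, with 1 point per group, on a log axis. Htr3a and Htr3b stand under 1 FPKM in SNL and in both AAV groups and above 60 FPKM in Control, while Htr1b lies between 7.21 and 9.52 FPKM in all 4 groups.

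The subunits of the serotonin-gated channel lay under 1 FPKM after ligation and had the highest levels of all members on the uninjured side. Htr3a, which can form the channel alone, had 0.520 FPKM in SNL and 66.7 FPKM in Control, a 128-fold lower level (log2 ratio -7.00). Htr3b had 0.609 FPKM in SNL and 68.5 FPKM in Control, 112-fold lower (log2 ratio -6.81). By level, Htr3b and Htr3a stood at places 11203 and 11346 of 16481 symbols in SNL, and at places 1200 and 1230 in Control. There were 0.853 Htr3a FPKM per Htr3b FPKM in SNL and 0.973 in Control, and 1.49 in the group labelled Neat1 shRNA and 1.39 in control AAV. The genes are neighbours on chromosome 8 of rn5, Htr3a from 51803897 to 51816207 and Htr3b from 51862139 to 51892309 in the table of SNL and Control, with 45931 bp between the rows. In bulk RNA, fewer cells of a type and less RNA per cell cannot be told apart.

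Of the Gi/o-coupled members, Htr1d differed most among those well above the lowest values. It had 0.479 FPKM in SNL and 10.9 FPKM in Control, 22.7-fold lower (log2 ratio -4.51), and was the member with the third highest level in Control. Htr1b, in contrast, had 8.76 FPKM in SNL and 7.21 FPKM in Control, a ratio of 1.22 that stays inside 1.5-fold. Htr1f had 0.883 FPKM in SNL and 0.331 FPKM in Control, 2.67-fold higher (log2 ratio 1.42). Both of its levels lie under 1 FPKM, and with 1 FPKM added to each value the log2 ratio was 0.50, inside 1.5-fold. Counting Htr1a, 2 of the 4 Gi/o-coupled members were lower in SNL, 1 stayed inside 1.5-fold and 1 was higher. Among all symbols with a mean of at least 0.5 FPKM, 16.4% were at least 1.5-fold lower and 19.6% at least 1.5-fold higher.

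Htr1a, the receptor known as the autoreceptor of brainstem serotonin neurons, had 0.00309 FPKM in SNL and 1.13 FPKM in Control. Multiplied by the row length, the SNL value is 0.0135 FPKM kb, under the lowest step of 0.0155 in that group, so its log2 ratio of -8.52 has no firm size. The row also differed between the tables, with 4382 bp in that of SNL and Control and 1269 bp in that of the AAV groups.

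The Gq-coupled members ran in opposite directions. Htr2a had 0.440 FPKM in SNL and 1.505 FPKM in Control, 3.42-fold lower (log2 ratio -1.77). Htr2b had 0.830 FPKM in SNL and 0.121 FPKM in Control, 6.84-fold higher (log2 ratio 2.77), from a low level. The Htr2b row has the same ends as that of Psmd1, a proteasome subunit gene, from 92809966 to 92884897 on chromosome 9 of rn5. Psmd1 had 68.3 FPKM in SNL and 86.1 FPKM in Control, so the Htr2b value is a small part of what was read at this location and is uncertain.

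Both Gs-coupled members were lower. Htr4 had 2.60 FPKM in SNL and 5.46 FPKM in Control, 2.10-fold lower (log2 ratio -1.07). Htr7 had 1.06 FPKM in SNL and 4.37 FPKM in Control, 4.10-fold lower (log2 ratio -2.04). After ligation Htr4 was the member with the second highest level, behind Htr1b.

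Over all 10 members, 7 were at least 1.5-fold lower in SNL, 2 were at least 1.5-fold higher (Htr1f and Htr2b) and Htr1b lay between. The median log2 ratio of the 10 was -1.91, beside 0.01 over the 11452 symbols with a mean of at least 0.5 FPKM over both groups. Of these symbols 16.4% were at least 1.5-fold lower and 19.6% at least 1.5-fold higher. Only 9 members passed that limit on the mean, since Htr2b had a mean of 0.476 FPKM, and of the 9, 7 were lower and 1 higher. Htr1a, Htr1d and Htr2a passed through their Control values alone and Htr1f through its SNL value alone. Counted from the lowest log2 ratio, Htr1a, Htr3a, Htr3b and Htr1d held places 11, 21, 23 and 77 of the 11452. As the members were taken with this contrast known, nothing is read from these counts.

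**Figure D2:**
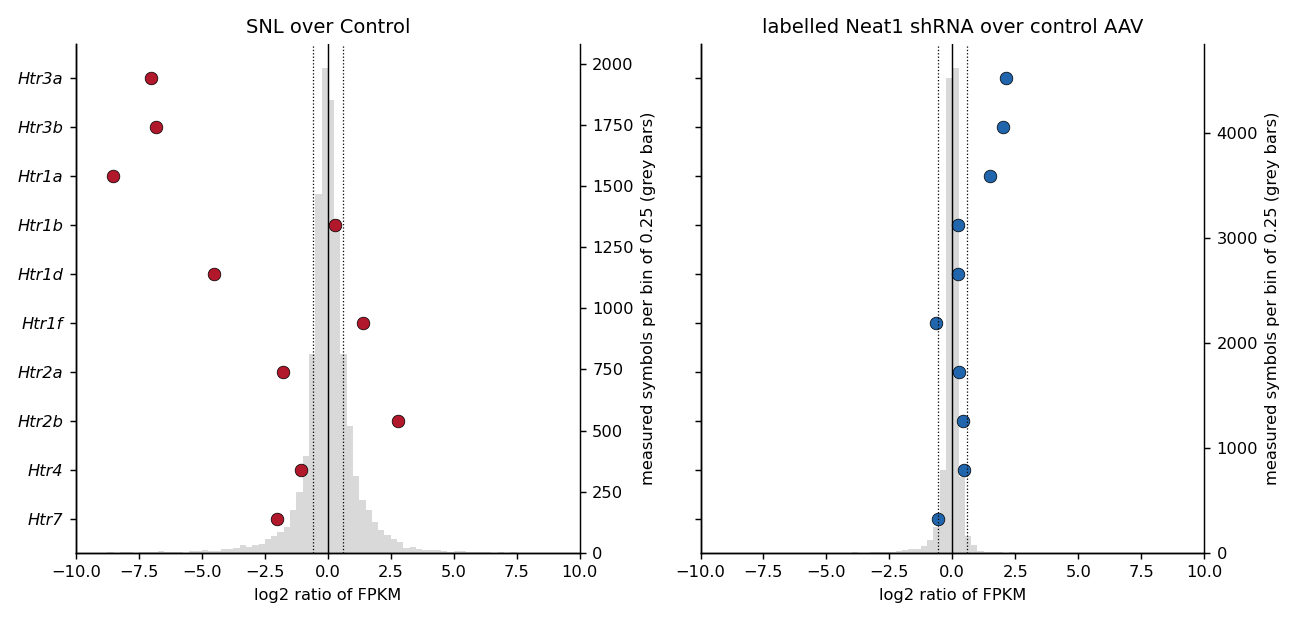
Log2 ratio of FPKM for each of the 10 members (points, drawn over grey bars), SNL over Control in the left panel and the group labelled Neat1 shRNA over control AAV in the right panel. The bars give the number of measured symbols per bin of 0.25 on the right axes. Dotted lines mark 1.5-fold; in SNL over Control, Htr3a, Htr3b, Htr1a and Htr1d lie in the far left tail, and in the right panel Htr3a and Htr3b lie near a log2 ratio of 2.

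The tables hold 4 further serotonin receptors, which are not among the members. None of them reached a mean of 0.5 FPKM in either table. Htr5b, a Gi/o-coupled receptor of rodents, had 0.0230 FPKM in SNL and 0.785 FPKM in Control. Htr5a had 0.0426 FPKM in SNL and 0.503 FPKM in Control, and Htr2c, which is Gq-coupled, had 0.0698 FPKM in SNL and 0.448 FPKM in Control. The Gs-coupled Htr6 was near the floor at 0.0492 FPKM in SNL and 0.0632 FPKM in Control.

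FPKM is scaled by transcript length, so levels can be added across genes. The summed level of the 10 members was 16.2 FPKM in SNL and 166 FPKM in Control. Htr3a and Htr3b together made up 6.98% of the sum in SNL and 81.3% in Control. Htr1b made up 54.1% of the sum in SNL and 4.34% in Control. Without the channel subunits, the sum was 15.1 FPKM in SNL and 31.0 FPKM in Control. Without Htr1b as well, it was 6.30 FPKM in SNL and 23.8 FPKM in Control. In SNL 3 members reached 1 FPKM (Htr1b, Htr4 and Htr7), against 8 in Control, where only Htr1f and Htr2b did not. The order of levels in SNL was Htr1b, Htr4, Htr7, Htr1f, Htr2b, Htr3b, Htr3a, Htr1d, Htr2a and Htr1a, and in Control it was Htr3b, Htr3a, Htr1d, Htr1b, Htr4, Htr7, Htr2a, Htr1a, Htr1f and Htr2b. With 1 value per group, no neighbours in these orders can be said to differ beyond a spread.

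**Figure D3:**
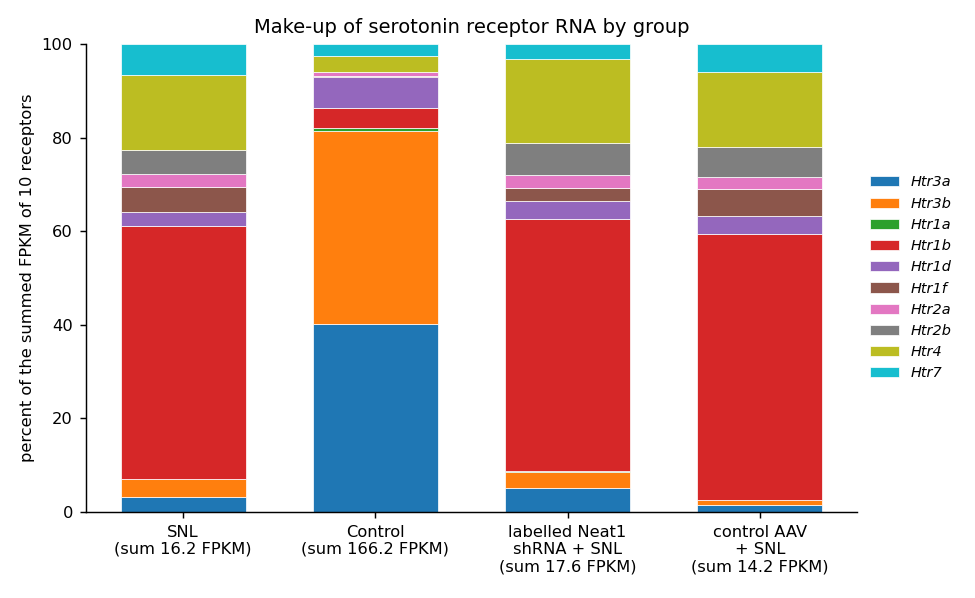
Share of each of 10 serotonin receptors in their summed FPKM, in percent, for the 4 groups, with the sum under each bar. Htr3a and Htr3b fill 6.98% of the SNL bar and 81.3% of the Control bar, and Htr1b is the largest part of all 3 bars of ligated ganglia.

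The AAV groups were also ligated, and as in SNL their receptor levels were led by Htr1b and Htr4. Htr1b, at 9.52 FPKM in the group labelled Neat1 shRNA and 8.08 FPKM in control AAV, was again the highest member, and Htr4, at 3.16 and 2.28 FPKM in the same order, the next. The summed level of the 10 members was 17.6 FPKM in the group labelled Neat1 shRNA and 14.2 FPKM in control AAV. Beside the Control value, all 3 ligated groups were lower for 7 members and higher for the other 3, Htr1b, Htr1f and Htr2b. For 4 members the SNL value lay between the values of the AAV groups, for 3 above and for 3 below both.

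Within the AAV table, the channel subunits had higher values under the Neat1 shRNA label, far below their Control levels. Htr3a had 0.894 FPKM in the group labelled Neat1 shRNA and 0.205 FPKM in control AAV, 4.37-fold higher (log2 ratio 2.13). Htr3b had 0.600 FPKM in the group labelled Neat1 shRNA and 0.148 FPKM in control AAV, 4.06-fold higher (log2 ratio 2.02). SNL without a vector, in the other table, had 0.520 FPKM of Htr3a, between the AAV groups, and 0.609 FPKM of Htr3b, close to the value under the Neat1 shRNA label and above that of control AAV. The sum of both subunits was 1.49 FPKM in the group labelled Neat1 shRNA and 0.353 FPKM in control AAV, 8.47% and 2.48% of the members' sum. Htr3a had a mean of 0.550 FPKM and passed the limit of 0.5 only through the group where it was high. Htr3b, with a mean of 0.374 FPKM, was under that limit.

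Htr1f was the member that was lower past 1.5-fold, with 0.521 FPKM in the group labelled Neat1 shRNA and 0.817 FPKM in control AAV (log2 ratio -0.65). With 0.1 FPKM added to each value, the log2 ratio of -0.56 is inside 1.5-fold. Htr7, at 0.575 FPKM in the group labelled Neat1 shRNA and 0.861 FPKM in control AAV (log2 ratio -0.58), lay just inside that limit.

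The remaining members lay inside 1.5-fold or were near the floor. Htr1b (log2 ratio 0.24), Htr1d (0.22), Htr2a (0.27), Htr2b (0.44) and Htr4 (0.47) were slightly higher in the group labelled Neat1 shRNA, all inside 1.5-fold. Htr1d had 0.6495 FPKM in that group and 0.558 FPKM in control AAV, Htr2a 0.466 and 0.386 FPKM, and Htr2b 1.21 and 0.893 FPKM in the same order. Htr1a had 0.0377 FPKM in the group labelled Neat1 shRNA and 0.0133 FPKM in control AAV, and the control AAV value, times the row length, was 0.0168 FPKM kb, the size of the lowest step. Of the 7 members with a mean of at least 0.5 FPKM, 1 was higher (Htr3a) and 1 lower (Htr1f) past 1.5-fold, where 1.77% and 4.15% of 11537 symbols were higher and lower. Over all 10 members, 3 were higher past 1.5-fold, with Htr3b and Htr1a, which lie under the limit of 0.5 FPKM. The shares above cover only symbols past that limit, so they have no counterpart for this count. The median log2 ratio was 0.35 over the 10 members and 0.24 over the 7, beside -0.004 over the 11537 symbols. The receptors outside the members were at 0.0908 FPKM or less in both AAV groups.

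The genes whose pattern over the 4 group values was most like that of each member were sought among 10839 symbols with a mean of at least 1 FPKM, as the Euclidean distance of log2(FPKM + 0.1) after centring each gene on its own mean. The 4 points come from 2 tables and are pooled values, so the distance is a description. Htr3a had as its nearest patterns Mrgprb4 (distance 0.36), Htr3b (0.55), Chrna3 (0.89), Chrnb4 (1.01) and Doc2a (1.06). Mrgprb4, a Mas-related receptor that marks touch-sensitive C fibres in mice, had 0.123 FPKM in SNL and 30.3 FPKM in Control, and 0.403 FPKM in the group labelled Neat1 shRNA against 0.0377 FPKM in control AAV. Chrna3 and Chrnb4 encode nicotinic acetylcholine receptor subunits of the same pentameric channel family as the serotonin channel. Chrna3 had 0.203 FPKM in SNL and 63.0 FPKM in Control, and 0.978 FPKM in the group labelled Neat1 shRNA against 0.180 FPKM in control AAV. Htr3b had as its nearest patterns Htr3a, Mrgprb4, Doc2a, LOC100360619 and Chrna3.

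**Figure D4:**
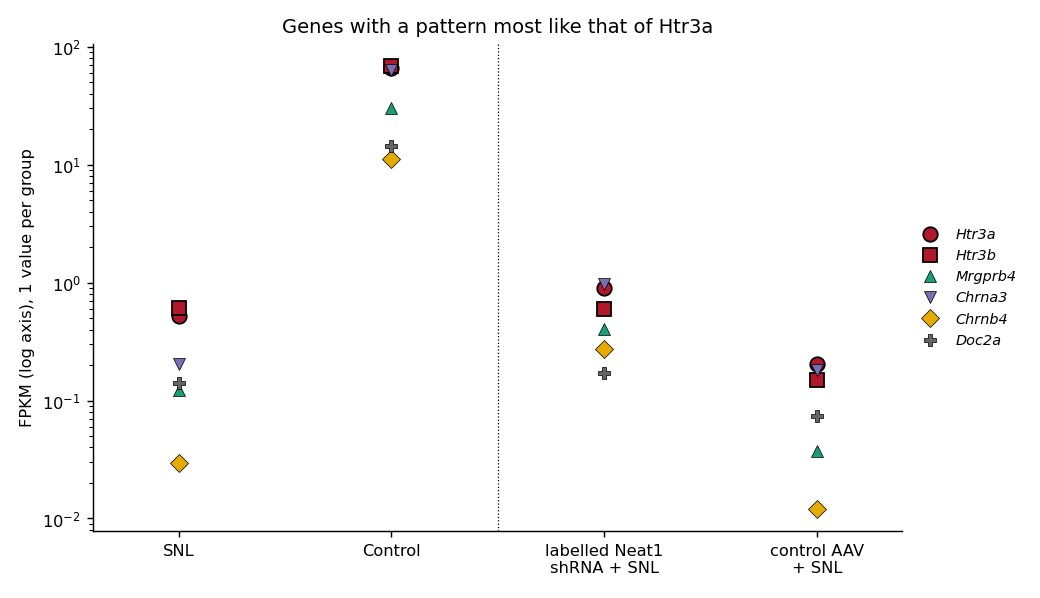
FPKM on a log axis of Htr3a, Htr3b and the 4 other genes with the pattern most like that of Htr3a, with 1 value per group; the dotted line parts the separately normalized tables. All 6 genes stand under 1 FPKM in each of the 3 ligated groups and above 11 FPKM in Control, and each is higher in the group labelled Neat1 shRNA than in control AAV.

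The other members had other neighbours. Htr1d was nearest to Kcnf1, a potassium channel subunit (distance 0.19), Inadl, Plcd4, Muc15 and Grik1, a kainate receptor subunit. Kcnf1 had 0.357 FPKM in SNL and 10.2 FPKM in Control. Htr7 was nearest to Rgs6 (0.23), Caln1, Wnt7a, Scgn and the synaptic vesicle fusion gene Snap25. Htr4 was nearest to Nrarp (0.07), Neto2, Thsd7a, Macrod1 and Slc7a4, and Htr1b to Usp49 (0.03), Il17rb, Cep162, Smox and Mab21l1. Among the 6 members compared, Htr3a and Htr3b were the closest pair (0.55) and Htr1b and Htr3b the farthest (6.49).

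The genes that make serotonin differed in direction after ligation. Of 7 measured genes of synthesis and its cofactor tetrahydrobiopterin, 4 were at least 1.5-fold higher in SNL and 1 lower (median log2 ratio 0.72), where 19.6% of all measured symbols were higher and 16.4% lower. Ddc, which completes the synthesis, was low, with 0.0394 FPKM in SNL and 0.0512 FPKM in Control. Tph1, the tryptophan hydroxylase of peripheral tissues, had 0.561 FPKM in SNL and 1.75 FPKM in Control, while Tph2, the form of neurons, had 10.3 FPKM in SNL and 4.02 FPKM in Control. Gch1, which starts cofactor synthesis, had 20.8 FPKM in SNL and 1.82 FPKM in Control, a log2 ratio of 3.52. Spr and Qdpr, a cofactor reductase each, had log2 ratios of 1.42 and 0.72. The vesicular transporter Slc18a2 had 4.25 FPKM in SNL and 1.22 FPKM in Control, and the low-affinity transporter Slc29a4 18.3 FPKM in SNL and 9.91 FPKM in Control. The other 5 transport genes, the serotonin transporter Slc6a4 among them (0.128 FPKM in SNL and 0.0655 FPKM in Control), had means under 0.5 FPKM. Maoa, which breaks serotonin down, had 64.0 FPKM in SNL and 27.4 FPKM in Control, and Aanat, which converts serotonin on the way to melatonin, 0.644 FPKM in SNL and 1.20 FPKM in Control. In the AAV table no measured gene of synthesis, transport or breakdown passed 1.5-fold.

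Of 8 measured chaperones and partners of the receptors, 1 was at least 1.5-fold lower in SNL and 1 higher, beside 16.4% and 19.6% of all measured symbols. Tmem35, listed for Tmem35a, a chaperone of nicotinic receptors, had 19.5 FPKM in SNL and 50.8 FPKM in Control, and Arrb1, a beta-arrestin, 62.6 FPKM in SNL and 33.9 FPKM in Control. The other 6 chaperones and partners lay inside 1.5-fold, among them Ric3, a chaperone of the serotonin channel, with 11.0 FPKM in SNL and 14.0 FPKM in Control. Past 1.5-fold, with the same background shares, 2 of 5 Gi/o genes were lower (Gnao1 by a log2 ratio of -1.34 and Gnai1 of -0.69). Of 7 Gq pathway genes 4 were lower, with Gna14 at -2.08, Plcb3 at -0.93 and Gnaq at -0.87, and Plcb2 was higher at 1.84. Plcb2 had 0.890 FPKM in SNL and 0.248 FPKM in Control, so it passed the limit on the mean through SNL alone. The Gs gene Gnal was lower (-1.81), while Gnas had 1145 FPKM in SNL and 1171 FPKM in Control. None of these partner and G protein genes passed 1.5-fold in the AAV table. Of 19 measured other pentameric receptor subunits (nicotinic, GABA-A and glycine), 14 were lower and 2 higher in SNL (median log2 ratio -1.58), beside 16.4% and 19.6% of all measured symbols. The largest differences were those of the nicotinic subunits Chrnb4 (log2 ratio -8.56), Chrna3 (-8.28), Chrnb3 (-6.68) and Chrna6 (-5.01). Chrnb4, Chrna3 and Chrnb3 passed the limit on the mean through their Control values alone. In SNL they had 0.0296, 0.203 and 0.199 FPKM, so the sizes of these ratios rest on low values. Chrna1, which was higher, passed through SNL alone, with 4.03 FPKM in SNL and 0.196 FPKM in Control. Between the AAV groups, 5 of 20 such subunits were at least 1.5-fold higher under the Neat1 shRNA label and 0 at least 1.5-fold lower (median log2 ratio 0.22), beside 1.77% and 4.15% of all measured symbols. Of the 5, Chrna3 passed the limit on the mean only through the group where it was high.

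Markers of the cells in the ganglion moved beside the receptors, and their part in the receptor levels was not tested. Marker counts here are of genes past 1.5-fold. The summed level of 10 pan-neuronal genes was 9733 FPKM in SNL and 8480.1 FPKM in Control, with 4 genes lower and 2 higher and a median log2 ratio of -0.38, so the sum and the median differ in sign. Markers of the somatostatin and natriuretic peptide B class of nociceptors summed to 9.03 FPKM in SNL and 182 FPKM in Control. Of the 5, 3 were lower and 1, Nts, was higher, and Sst alone held 160 FPKM of the Control sum. Nppb and Il31ra, both lower, passed the limit on the mean through their Control values alone. Peptidergic nociceptor markers were lower in 4 of 5 and higher in 1, Mrgprd class markers lower in 5 of 5 and myelinated neuron markers lower in 4 of 6. All 8 macrophage and all 6 T cell markers were higher in SNL, summing to 214 and 35.4 FPKM in SNL and to 41.1 and 7.81 FPKM in Control. The T cell markers Cd3e, Cd3d, Cd3g, Cd2 and Cd8a passed the limit on the mean only through SNL, the group where they were high. Of 10 mast cell markers, 3 reached a mean of 0.5 FPKM in that table, 1 of them higher. That marker, Tpsb2, reached it through its SNL value alone.

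In the AAV table, the somatostatin and natriuretic peptide B class had 3 of 5 markers higher in the group labelled Neat1 shRNA, with a sum of 14.6 against 13.7 FPKM. Il31ra had 1.42 FPKM in that group and 0.376 FPKM in control AAV. Il31ra and Nppb passed the limit on the mean only through the group where they were high. Nts (log2 ratio -0.27) and Osmr (-0.25) were lower, inside 1.5-fold. Peptidergic markers had 0 of 5 past 1.5-fold. Mrgprd class markers had 1 of 4 higher and 1 lower, and myelinated neuron markers 1 of 6 higher. The pan-neuronal sum was 8566 FPKM in the group labelled Neat1 shRNA and 8008 FPKM in control AAV, with 0 of 10 past 1.5-fold. Of all measured symbols, 1.77% were higher and 4.15% lower past 1.5-fold in the group labelled Neat1 shRNA. T cell markers were lower in 5 of 6, with sums of 51.7 FPKM in the group labelled Neat1 shRNA and 110 FPKM in control AAV. Smooth muscle markers were higher in 4 of 6, with sums of 269 and 176 FPKM in the same order. Myelinating Schwann cell markers were higher in 2 of 5, with sums of 6656 FPKM in the group labelled Neat1 shRNA and 4681 FPKM in control AAV. Whether these differences bear on Htr3a and Htr3b was not tested.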

How the data were processed

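Polyadenylated RNA of the rat L5 DRG was sequenced in 12 libraries, 3 in each of 4 groups. According to the methods, the authors aligned directional paired reads to rn5 with RefSeq genes, and Cufflinks is listed with rn5 in the notes on processing that the submitters gave. The deposited FPKM, 1 value per group over its libraries, were calculated by the authors within each of 2 tables (28578 and 28745 rows). The deposited tables also hold the authors' fold changes, p-values and q-values, which were not used.

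Rows with exactly 1 symbol were kept, the row with the highest mean per symbol. Rows with several symbols (404 and 402) or none were left out. Log2 ratios were taken without a pseudocount. A symbol with a mean of at least 0.5 FPKM over both groups counts as measured. Past the fold means a ratio of at least 1.5 or at most 0.667. Locations are 1-based in rn5. List symbols were matched in 180 of 185 cases, by name or by RefSeq synonym (GRCr8, names only).

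Genes are named by a fixed rule: all serotonin receptors, per list up to 4 genes past the fold or else the 2 highest, and the 5 nearest patterns per member. Lists of cell markers are given mainly by counts. The members and lists were chosen with earlier results of these data known. Functions were tested on simulated data. Alternatives were pseudocounts of 0.1 and 1, scaling to the median ratio, the sum of rows, a 2-fold threshold and other limits on low values. The software was Python 3.11.15 (numpy 2.4.6; pandas 2.3.3), and matplotlib 3.10.9 drew the plots.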

Additional observations from a re-analysis of the deposited data

How the results depend on the processing

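No paired analysis was possible because the files hold 1 value per group, and for the same reason no replicate could be left out. Pseudocounts cannot turn the direction of a member, so they bear only on size. The sum of rows changes no value here, since each member has 1 row. The members lower in SNL numbered 7 with pseudocounts of 0.1 and 1, with scaling to the median ratio, under a 2-fold threshold and with no filter, and 5 with a mean of at least 1 FPKM, which leaves out Htr1a and Htr2a. The members higher in SNL numbered 1, and 2 with no filter on low values, 0 with a mean of at least 1 FPKM and 0 with a pseudocount of 1. Those higher in the group labelled Neat1 shRNA numbered 1, and 3 with no filter, 0 with a mean of at least 1 FPKM and, in a count chosen after seeing the data, 0 without Htr3a and Htr3b. Those lower there numbered 1 (Htr1f), and 0 with a 2-fold threshold, a mean of at least 1 FPKM, or a pseudocount of 0.1 or 1. With a pseudocount of 1 the Htr3b log2 ratio between the AAV groups was 0.48, inside 1.5-fold. The counts of higher members, and of those lower between the AAV groups, move with members at low values. Htr1f had means of 0.607 FPKM over SNL and Control and 0.669 FPKM over the AAV groups. Htr3a had a mean of 0.550 FPKM over the AAV groups. Without a filter, Htr2b enters for SNL over Control, and Htr3b and Htr1a enter between the AAV groups.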
